A study of Mus musculus with 24 samples.

Results

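The Wnt pathway genes described here are the secreted Wnt ligands, the receptors and coreceptors that bind them, the R-spondins with their receptors, the secreted antagonists and the feedback genes of the pathway. Members were the protein-coding genes whose GENCODE M21 symbol begins with Wnt, Fzd, Sfrp, Dkk or Rspo followed by a number, together with Frzb, Wif1, Lrp5, Lrp6, Axin2, Notum, Lgr4, Lgr5, Lgr6, Znrf3 and Rnf43. They made up 52 of the 55421 genes listed in each count table: 19 Wnt ligands, 10 Frizzled receptors, 2 coreceptors, 4 R-spondins, 3 R-spondin receptors, 2 ubiquitin ligases, 5 secreted Frizzled-related antagonists, 6 other secreted antagonists and the intracellular feedback gene Axin2. RNA was sequenced from uninjured carotid arteries of wild-type C57BL/6 female mice, all ovariectomized and 9 weeks old by the labels, with 6 mice in each of 4 groups. Vehicle-treated mice (labelled OVX, with placebo as their treatment) were set against mice given 17β-estradiol (E2, the main ovarian estrogen), estetrol (E4, a fetal estrogen with more hydroxyl groups than E2) or tamoxifen (TAM, a selective estrogen receptor modulator). The series text gives 3 weeks of treatment, whereas the study's methods describe a shorter one. The E4 libraries also carry placebo in the treatment field and were placed by their titles. The pellets held different amounts of E2 and E4, set by the study to give a like estrogenic effect as judged by the uterus, and the tamoxifen regimen was not given in the sources used here, so that tamoxifen and its dose cannot be told apart. Whole arteries were used, so fewer cells of a type and less RNA per cell cannot be told apart.

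Wnt proteins are lipid-modified secreted ligands that bind Frizzled receptors together with the coreceptors Lrp5 or Lrp6 and thereby protect β-catenin from destruction, which lets it switch on target genes with TCF/LEF factors. The ubiquitin ligases Znrf3 and Rnf43 remove Frizzled receptors from the cell surface, and R-spondins bound to Lgr receptors block these ligases and so raise the sensitivity of a cell to Wnt. Secreted Frizzled-related proteins and Wif1 bind Wnt ligands, Dickkopf proteins act mainly at the coreceptors, and in the artery the pathway is known for its roles in smooth muscle growth, endothelial maturation and calcification.

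Libraries held 24649523 to 64223858 assigned read pairs. Defining genes of smooth muscle, endothelium and fibroblasts were detected in every group, and at least 4 libraries stood apart. Vehicle mouse C5 and tamoxifen mouse C35 had low levels of sympathetic ganglion genes (list mean of 1.56 and 4.10 log2 CPM, against 7.31 to 9.16 in the other 22), E2 mouse C9 was high in T cell genes, and E4 mouse C38 had the fewest reads and was high in thyroid and parathyroid genes. Animal numbers fell into 2 series, up to 20 and from 24, which the labels do not call batches.

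Per length, 5 genes grouped here by family as secreted antagonists (Dkk3, Sfrp5, Sfrp1, Sfrp2 and Sfrp4) were expressed above every ligand. Others such as Frzb, Wif1 and Notum were below Wnt5a. Whether Dkk3 acts on Wnt signaling in this artery was not tested. Dkk3, a divergent Dickkopf protein, had the highest median over the 24 libraries at 121.8 RPKM (reads per kilobase of exon, scaled to library size), with a range of 45.0 to 153.6. Sfrp5 followed at 34.3 RPKM, Sfrp1 at 32.3, Sfrp2 at 25.02 and Sfrp4 at 22.4, all secreted decoys for Wnt ligands. These 4 had overlapping ranges over the libraries, from 11.9 to 64.3 RPKM for Sfrp5 and from 14.6 to 56.9 RPKM for Sfrp4. Among receptors Fzd4, an endothelial Frizzled that also binds norrin, was highest at 28.97 RPKM, with Fzd1 at 11.97 and Fzd7 at 9.87. Lgr6, an R-spondin receptor, was at 14.8 RPKM. The ligand with the highest level was Wnt5a, which acts mostly outside β-catenin, at 9.98 RPKM (5.96 to 16.6), and it was followed by Wnt2b at 5.30 RPKM and Wnt6 at 5.21 RPKM. The R-spondins were low, from 0.123 RPKM for Rspo4 to 2.43 for Rspo1. Members ranged down to Wnt3a and Wnt7a, each with 2 read pairs in a single library. Of the 52 members, 45 passed the filter on low counts, and the other 7 (Wnt1, Wnt3a, Wnt7a, Wnt7b, Wnt8a, Wnt8b and Dkk4) were not tested.

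**Figure D1:**
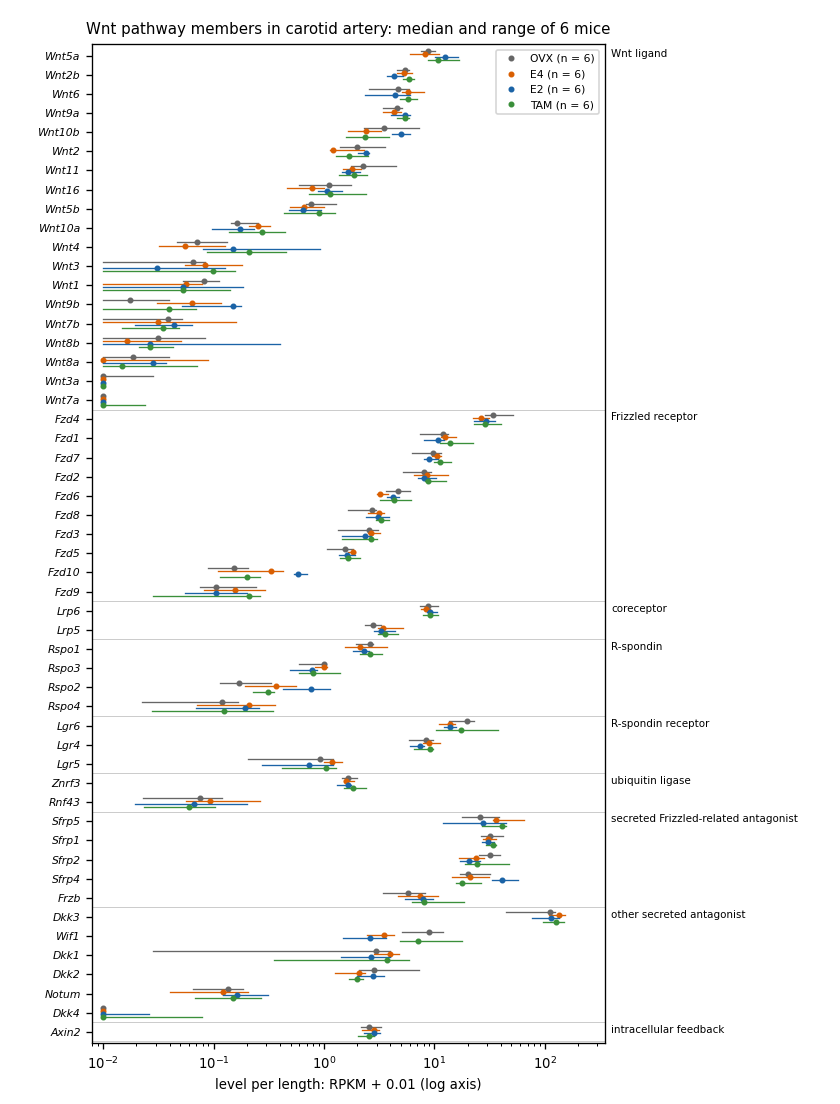
Level per length of each of the 52 members (RPKM plus 0.01, log axis), with points for the median and lines for the range of the 6 mice in each group, ordered by role and by median. Dkk3 lies highest at a median of 121.8 RPKM, and the ranges of the 4 groups overlap for most members.

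Expression was compared with edgeR's quasi-likelihood test in all 24 libraries, with adjustment over the 25056 genes tested, and a gene with an adjusted p under 0.05 is called here. With E2, 5 of the 45 members were called as compared with vehicle (11.1%), against 4.14% of all genes tested: Rspo2, Fzd10, Wnt9b and Sfrp4 rose and Wif1 fell. With E4, 9 of the 45 were called (20%), against 22% of all genes, a share near the background: Rspo2, Fzd10, Wnt9b and Lrp5 rose, while Wif1, Dkk2, Wnt10b, Fzd6 and Fzd4 fell. With tamoxifen 0 of the 45 were called, against 2.23% of all genes, and 15 had an unadjusted p under 0.05, against 21% of all genes. DESeq2 called 5 of 41 members with tamoxifen, against 7.06% of all genes it tested. The median log2 fold change of the tested members was 0.0095 with E2 (0.0060 over all genes), 0.082 with E4 (-0.014 over all genes) and 0.19 with tamoxifen (-0.0031 over all genes). The 3 comparisons share the vehicle libraries, so that the members called with both estrogens (Rspo2, Fzd10, Wnt9b and Wif1) are given with the values of each group and not as an overlap. Wnt9b passed the filter on low counts only through groups other than vehicle, so that a rise over vehicle was favored in advance. It is still counted in these shares and in those below where it was called.

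**Figure D2:**
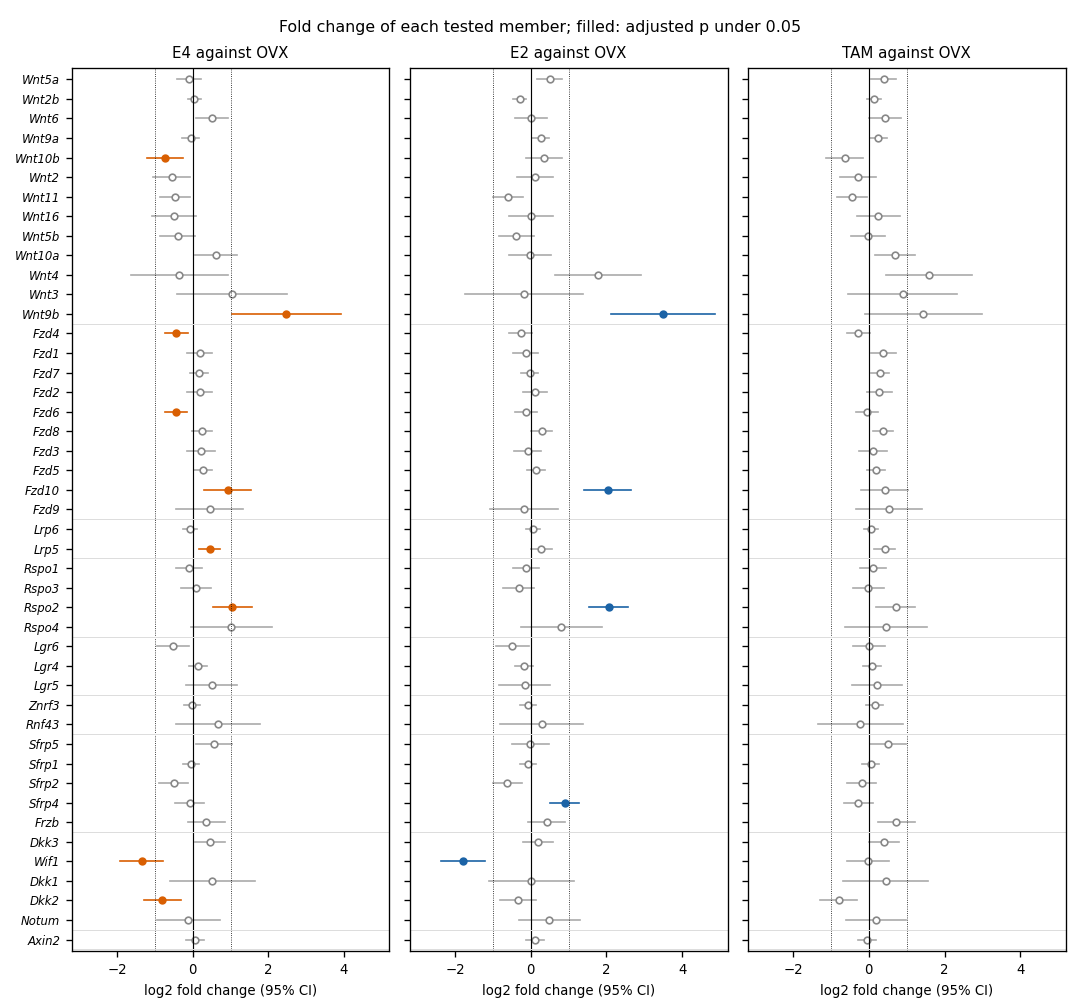
Log2 fold change of each of the 45 tested members as compared with vehicle, with 95% confidence intervals, for E4, E2 and TAM, where filled points mark an adjusted p under 0.05 and dotted lines a 2-fold change. E4 has 9 filled points, E2 has 5 and TAM has 0.

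In groups that do not overlap, every mouse of one lies above every mouse of the other. This was so of 5 members with E2 (2.82% of all genes), of 1 with E4 (9.38% of all genes) and of 0 with tamoxifen (2.58%). With the study's added threshold of a 2-fold change, 4 of the 45 were called with E2 (1.27% of all genes), 3 with E4 (2.51%) and 0 with tamoxifen (0.315%). Wnt9b is among the members counted with E2 under both rules, and with E4 under the 2-fold rule.

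Of the ligands, Wnt9b was called with both estrogens. Wnt9b (ENSMUSG00000018486, chromosome 11, 103727364 to 103749821, minus strand) acts through β-catenin in kidney and craniofacial development and was expressed at the edge of detection. Vehicle libraries held 0 to 6 read pairs of it, E4 libraries 4 to 20, E2 libraries 8 to 36 and tamoxifen libraries 0 to 12. As lowest, median and highest value this was 0, 0.0336 and 0.132 CPM (counts scaled to library size, not to gene length) with vehicle, 0.0938, 0.245 and 0.487 with E4, 0.189, 0.629 and 0.759 with E2, and 0, 0.133 and 0.269 with tamoxifen. All 6 E2 mice lay above all vehicle mice, while E4 and tamoxifen mice overlapped them. Its fitted log2 fold change was 3.50 with E2 (95% confidence interval 2.13 to 4.86, edgeR adjusted p = 0.00178) and 2.47 with E4 (1.03 to 3.92, edgeR adjusted p = 0.016). With tamoxifen the estimate was 1.44 (-0.092 to 2.98, edgeR adjusted p = 0.269). So few reads leave these intervals wide, and Wnt9b passed the filter on low counts only through groups other than vehicle, so that a gene at the vehicle level in all groups would not have been tested. In the 2 number series taken alone, the estimates were 3.03 and 4.71 with E2 and 1.95 and 3.76 with E4, none of them called (lowest edgeR adjusted p = 0.134).

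The reference sequence upstream of 2 members called with both estrogens is shown because each window holds the core of an estrogen response element. Searched were GGTCA and its reverse complement TGACC, in capitals below, in RefSeq windows (build GRCm38.p6) from 250 bases before to 50 after each start. Each stretch ends where the first GENCODE exon begins and reads 5′ to 3′ on the strand of the gene, at chr10:121033754-121033959 (plus strand) for Wif1 and chr11:103749822-103750071 (minus strand) for Wnt9b.
Wif1: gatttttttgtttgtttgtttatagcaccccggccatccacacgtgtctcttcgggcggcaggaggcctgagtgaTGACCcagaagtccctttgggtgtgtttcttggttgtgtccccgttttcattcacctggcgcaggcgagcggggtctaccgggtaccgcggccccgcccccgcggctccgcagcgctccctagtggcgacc
Wnt9b: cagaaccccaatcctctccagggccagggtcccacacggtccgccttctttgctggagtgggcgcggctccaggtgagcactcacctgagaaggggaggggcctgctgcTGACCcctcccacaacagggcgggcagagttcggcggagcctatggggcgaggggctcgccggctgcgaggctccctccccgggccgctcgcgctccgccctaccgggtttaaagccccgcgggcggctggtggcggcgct

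The match begins 175 bases before the RefSeq start in Wif1 and 141 bases before it in Wnt9b. The Fzd10 window holds no match and lies within the GENCODE exon, and Rspo2 has no entry in the table. Of all 32851 windows, 40.5% hold the core on either strand, as do 17 of the 37 windows of the 33 members in the table, so its presence does not set Wif1 and Wnt9b apart. The full palindromic element, in which GGTCA is followed after 3 bases by TGACC, is in 0.07% of all windows and in 0 of the member windows. The TCF/LEF motifs CTTTGAT and CTTTGTT, searched on both strands, are in 3.73% and 5.85% of all windows and in 2 and 3 member windows.

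Wnt10b, which acts through β-catenin and holds back fat cell formation, fell with E4. Its CPM were 7.77, 11.9 and 24.4 with vehicle (lowest, median, highest), 5.58, 8.08 and 11.1 with E4, 14.0, 16.9 and 20.5 with E2, and 5.37, 7.98 and 13.2 with tamoxifen. The highest vehicle value was that of mouse C5, and E4 overlapped the vehicle group. The log2 fold change with E4 was -0.74 (-1.22 to -0.25, edgeR adjusted p = 0.0279), and without vehicle C5 it was -0.46 and not called (adjusted p = 0.108). The call was also lost without E4 C19 or C20 and in each number series alone. With the ganglion, B cell, adipocyte or macrophage list mean as a covariate it was lost too. With E2 the log2 fold change was 0.35 (adjusted p = 0.526) and with tamoxifen -0.64 (adjusted p = 0.121). The E2 group lay above all E4 and all tamoxifen mice, and the direct comparisons gave -1.08 for E4 (edgeR adjusted p = 0.0052) and -0.98 for tamoxifen (edgeR adjusted p = 0.0117). Both direct calls were lost with the adipocyte list mean as a covariate, at -0.76 (edgeR adjusted p = 0.0534) and -0.56 (edgeR adjusted p = 0.196). With the macrophage list mean both changed sign, to 0.089 (edgeR adjusted p = 0.902) and 0.084 (edgeR adjusted p = 0.881).

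Of the other ligands, 3 differed between E4 and E2. Wnt2b, a stromal ligand, had CPM of 19.3, 22.7 and 24.97 with vehicle, 19.4, 22.4 and 26.2 with E4, 15.5, 18.2 and 21.8 with E2, and 21.97, 24.96 and 27.4 with tamoxifen. It was higher with E4 than with E2 by 0.33 on the log2 scale (edgeR adjusted p = 0.016) and higher with tamoxifen than with E2 by 0.43 (edgeR adjusted p = 0.00266), with no overlap between tamoxifen and E2 mice. The call between E4 and E2 was lost in each number series alone (0.21 and 0.46) and with the B cell (0.27), adipocyte (0.30) or macrophage (0.55) list mean as a covariate, at edgeR adjusted p values of 0.0942 to 0.318. The call between tamoxifen and E2 was lost in each number series alone (0.38 and 0.49). Wnt5a was at 59.4, 68.8 and 79.8 CPM with vehicle, 46.6, 64.4 and 86.5 with E4, 79.1, 97.2 and 129 with E2, and 68.5, 84.9 and 130 with tamoxifen. E4 mice overlapped E2 mice, and the log2 fold change between them was -0.59 (edgeR adjusted p = 0.0179), which became -0.50 and lost its call without E2 mouse C8 (adjusted p = 0.0623). The call was also lost in the second number series alone (-0.40), with the B cell (-0.53) and adipocyte (-0.52) list means as covariates, and with the macrophage list mean, where the sign changed (0.19, edgeR adjusted p = 0.684). Wnt4, a ligand of the female reproductive tract and of epithelia, had 0.153 to 0.519 CPM with vehicle, 0.0938 to 0.486 with E4, 0.296 to 3.79 with E2 and 0.325 to 1.86 with tamoxifen, and the highest E2 value was that of mouse C9, with the other 5 at up to 0.671. Its log2 fold change between E4 and E2 was -2.13 (edgeR adjusted p = 0.0207), and -1.10 without C9 (adjusted p = 0.121). Epithelial genes were also highest in C9, at a list mean of 1.93 log2 CPM against -0.531 to -0.329 in the other E2 libraries, and their part in the Wnt4 value was not tested. Without E4 mouse C20 the Wnt4 estimate was -1.95 (adjusted p = 0.0544). The call was also lost in the second number series alone (-0.69) and with the B cell (-2.29), adipocyte (-1.51) or macrophage (-2.05) list mean as a covariate, at edgeR adjusted p values of 0.0623 to 0.938. The 8 other tested ligands (Wnt2, Wnt3, Wnt5b, Wnt6, Wnt9a, Wnt10a, Wnt11 and Wnt16) were called in none of the 6 comparisons.

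**Figure D3:**
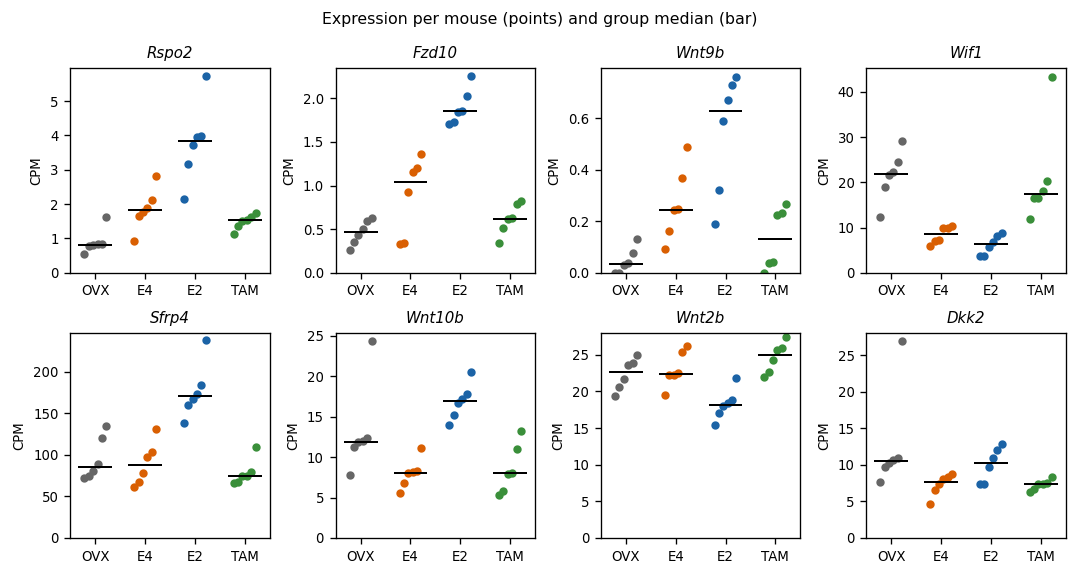
Expression in CPM of 8 members in each mouse (points, 6 per group, sorted by value within a group) with the group median as a bar. For Rspo2, Fzd10, Wnt9b and Sfrp4 all E2 mice lie above all vehicle (OVX) mice and for Wif1 below them, and a vehicle mouse stands far above the rest for Wnt10b and Dkk2.

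Of the 10 Frizzled receptors, Fzd10 was the member that rose with both estrogens. Fzd10 (ENSMUSG00000081683, chromosome 5, 128600844 to 128604093, plus strand) lies in a single exon, is restricted in most adult tissues, and was among the lowest receptors in this artery. Its CPM were 0.255, 0.465 and 0.630 with vehicle, 0.328, 1.04 and 1.36 with E4, 1.70, 1.85 and 2.25 with E2, and 0.341, 0.622 and 0.826 with tamoxifen. All E2 mice lay above the mice of the other 3 groups, and 2 E4 mice lay within the vehicle range. E2 raised it 4.08-fold (log2 fold change 2.03, 1.41 to 2.64, edgeR adjusted p = 0.000104) and E4 raised it 1.90-fold (0.93, 0.30 to 1.55, edgeR adjusted p = 0.0327). The call with E4 was lost in 6 of 12 fits that left out a single library, at log2 fold changes down to 0.76 without E4 mouse C39, and the libraries concerned were vehicle C3 and C5 and E4 C16, C36, C38 and C39. In the first number series alone the estimate with E2 was 2.34 (edgeR adjusted p = 0.0113) and in the second 1.55 (edgeR adjusted p = 0.107), and with E4 these were 0.62 and 0.95, neither called. With tamoxifen the estimate was 0.41 (-0.22 to 1.04, edgeR adjusted p = 0.458), with 4 mice within the vehicle range and C13 and C35 above it, at 0.826 and 0.789 CPM. Set directly against E2, E4 gave -1.10 (edgeR adjusted p = 0.0164) and tamoxifen -1.61 (edgeR adjusted p = 0.00109). The call for E4 was lost in the second number series alone and with the B cell, adipocyte or macrophage list mean as a covariate. That for tamoxifen was lost in the first series alone and with the macrophage list mean.

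Fzd4 and Fzd6 fell with E4. Fzd4 was at 194, 226 and 346 CPM with vehicle and 150, 176 and 209 CPM with E4, with the highest vehicle value in mouse C5. Fzd6, which takes part in planar polarity, was at 17.5, 22.3 and 28.7 CPM with vehicle, again highest in C5, and 14.4, 15.6 and 18.4 CPM with E4. The groups overlapped for both receptors. The log2 fold change was -0.44 for Fzd4 (edgeR adjusted p = 0.0364) and -0.45 for Fzd6 (edgeR adjusted p = 0.0247), and without C5 these were -0.29 (adjusted p = 0.125) and -0.35 (adjusted p = 0.0748). The call was lost in 7 of 12 single-library fits for Fzd4 and in 4 of 12 for Fzd6. Fzd1 and Fzd7, the receptors next to Fzd4 in level and both able to signal through β-catenin, were called in none of the 6 comparisons. Fzd1 was at 31.3, 50.7 and 56.0 CPM with vehicle, 47.7, 52.0 and 65.8 with E4, 33.5, 45.2 and 51.6 with E2, and 47.4, 58.1 and 94.6 with tamoxifen. Fzd7 was at 28.2, 43.6 and 52.3 CPM with vehicle, 42.9, 47.4 and 52.5 with E4, 36.7, 40.6 and 48.7 with E2, and 44.8, 50.5 and 63.6 with tamoxifen. All groups overlapped for both, and their estimates with tamoxifen were 0.38 (edgeR adjusted p = 0.172) and 0.29 (edgeR adjusted p = 0.154). The remaining Frizzled genes (Fzd2, Fzd3, Fzd5, Fzd8 and Fzd9) were also without a call.

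Of the coreceptors, Lrp5 rose with E4 and Lrp6 was called in none of the comparisons. Lrp5 was at 22.6, 27.1 and 31.98 CPM with vehicle, 29.8, 33.3 and 50.4 with E4, 27.7, 31.9 and 42.5 with E2, and 29.8, 34.8 and 45.3 with tamoxifen. The groups overlapped throughout. Its log2 fold change was 0.44 with E4 (0.17 to 0.72, edgeR adjusted p = 0.0221), beside 0.42 with tamoxifen (adjusted p = 0.0819) and 0.28 with E2 (adjusted p = 0.308). Without vehicle C3, E4 C20 or E4 C39 the call with E4 was lost, with estimates of 0.40, 0.41 and 0.33. It was also lost in each number series alone and with the B cell list mean as a covariate. The estimates for Lrp6 ran from -0.080 to 0.063 as compared with vehicle, with confidence limits no wider than -0.26 to 0.24.

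Rspo2 was the R-spondin that changed, and it rose with both estrogens. Rspo2 (ENSMUSG00000051920, chromosome 15, 43020794 to 43170826, minus strand) encodes R-spondin 2, which amplifies Wnt signaling and is needed for limb and lung development. Its CPM were 0.536, 0.820 and 1.64 with vehicle, 0.932, 1.83 and 2.82 with E4, 2.14, 3.84 and 5.72 with E2, and 1.12, 1.53 and 1.74 with tamoxifen. All E2 mice lay above all vehicle and all tamoxifen mice, and the E4 mice lay between, overlapping both E2 and vehicle. The vehicle group was held up by mouse C25 at 1.64 CPM, since the other 5 lay at 0.536 to 0.835. E2 raised Rspo2 4.17-fold (log2 fold change 2.06, 1.54 to 2.58, edgeR adjusted p = 8.86e-06) and E4 raised it 2.07-fold (1.05, 0.53 to 1.57, edgeR adjusted p = 0.00621). Both calls were kept in all 12 single-library fits. The estimate with tamoxifen was 0.71 (0.19 to 1.23, edgeR adjusted p = 0.111). In the first number series alone, with 4 vehicle mice and 3 of each estrogen, the log2 fold change was 2.50 with E2 and 1.28 with E4, both called, and in the second, with 2 vehicle mice, it was 1.44 (edgeR adjusted p = 0.327) and 0.68 (edgeR adjusted p = 0.583). E4 was below E2 by a log2 fold change of -1.01 (edgeR adjusted p = 0.0102) and tamoxifen by -1.35 (edgeR adjusted p = 0.00111). Both direct calls were lost in the second number series alone, at -0.76 (edgeR adjusted p = 0.757) and -1.14 (edgeR adjusted p = 0.27), and that of E4 also with the adipocyte list mean as a covariate, at -0.85 (edgeR adjusted p = 0.0911). Rspo1, Rspo3 and Rspo4 were called in none of the 6 comparisons.

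The R-spondin receptors and the ubiquitin ligases gave no calls. Lgr6, at 92.8, 137 and 158 CPM with vehicle, had 74.8, 95.7 and 106 CPM with E4, 84.4, 94.5 and 107 with E2 and 70.9, 120 and 259 with tamoxifen, the last in mouse C35. The log2 fold change was -0.52 with E4 (edgeR adjusted p = 0.0691) and -0.49 with E2 (edgeR adjusted p = 0.226). Znrf3 was at 10.2 to 18.96 CPM over all libraries, and its estimates as compared with vehicle ran from -0.078 to 0.15 with confidence limits of -0.29 to 0.37. Rnf43, its close relative, held 0.0633 to 1.66 CPM, and its limits of -1.34 to 1.77 left room for more than a 2-fold change either way.

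Among the antagonists, Wif1 fell with both estrogens. Wif1 (ENSMUSG00000020218, chromosome 10, 121033960 to 121100650, plus strand) encodes Wnt inhibitory factor 1, which binds Wnt ligands outside the cell. Its CPM were 12.4, 21.9 and 29.2 with vehicle, 6.00, 8.53 and 10.4 with E4, 3.62, 6.28 and 8.86 with E2, and 11.9, 17.3 and 43.4 with tamoxifen. All mice of both estrogen groups lay below all vehicle and all tamoxifen mice, and the highest tamoxifen value was that of C35. With tamoxifen the estimate was -0.026 (-0.58 to 0.53, edgeR adjusted p = 0.97). Wif1 was 3.49-fold lower with E2 (log2 fold change -1.80, -2.38 to -1.22, edgeR adjusted p = 0.000214) and 2.56-fold lower with E4 (-1.35, -1.93 to -0.78, edgeR adjusted p = 0.00233). Both calls were kept in all 12 single-library fits. With tamoxifen it was higher than with E2 by 1.78 (edgeR adjusted p = 0.000258, though 1.03 with adjusted p = 0.0619 in the first number series alone) and higher than with E4 by 1.33 (edgeR adjusted p = 0.0276), and the second of these lost its call without TAM C32 or C35 or E4 C19, C20 or C38, at estimates of 0.98 to 1.34. In the number series taken alone, the log2 fold change was -1.50 with E2 and -1.41 with E4 in the first, both called, and -2.21 (edgeR adjusted p = 0.0777) and -1.31 (edgeR adjusted p = 0.271) in the second.

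Sfrp4 rose with E2. Sfrp4 (ENSMUSG00000021319, chromosome 13, 19623104 to 19632994, plus strand) encodes a secreted decoy that is widespread in fibroblasts. Its CPM were 72.1, 85.0 and 134 with vehicle, 61.0, 87.8 and 132 with E4, 139, 170 and 238 with E2, and 65.5, 74.8 and 110 with tamoxifen. All E2 mice lay above the mice of the other 3 groups. The log2 fold change was 0.89 with E2 (0.50 to 1.28, edgeR adjusted p = 0.0052). All 7 macrophage genes were also called higher with E2, and with their mean as a covariate the estimate was 0.019 (edgeR adjusted p = 0.957). Both E4 and tamoxifen were below E2, by -0.98 (edgeR adjusted p = 0.00198) and -1.17 (edgeR adjusted p = 0.000337). These 2 direct calls were lost in the second number series alone and with the macrophage list mean as a covariate. Of 7 fibroblast genes, 5 were called lower with E4 than with E2 (median log2 fold change -0.57), and 2 lower and 1 higher with tamoxifen than with E2 (median -0.35), and their part in the Sfrp4 values was not tested. In the number series taken alone the estimates with E2 were 0.90 (edgeR adjusted p = 0.101) and 1.03 (edgeR adjusted p = 0.156). Dkk2, a Dickkopf protein that can block or weakly activate Lrp6, fell with E4: it was at 7.60, 10.5 and 26.9 CPM with vehicle, 4.61, 7.71 and 8.75 with E4, 7.39, 10.3 and 12.8 with E2, and 6.27, 7.40 and 8.35 with tamoxifen. The highest vehicle value was again C5, and the groups overlapped. Its log2 fold change with E4 was -0.80 (edgeR adjusted p = 0.0182) and without C5 it was -0.42 (edgeR adjusted p = 0.0634). The call was also lost in the fit of the 2 groups alone and in each number series alone. With the ganglion, B cell, adipocyte or macrophage list mean as a covariate it was lost too. With tamoxifen the estimate was also -0.80 (edgeR adjusted p = 0.0609).

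Of the genes grouped as antagonists with the highest levels, Dkk3, Sfrp1, Sfrp2 and Sfrp5 were not called in any of the 6 comparisons, unlike Sfrp4. Frzb, Dkk1 and Notum were not called either. Sfrp2 came nearest, at 54.3, 69.4 and 84.5 CPM with vehicle, 36.1, 51.1 and 60.5 with E4 and 36.9, 44.6 and 55.8 with E2. Its log2 fold changes were -0.50 with E4 (-0.88 to -0.13, edgeR adjusted p = 0.05, which exceeded the threshold before rounding) and -0.62 with E2 (-0.997 to -0.24, edgeR adjusted p = 0.0568). Of the exon bases of Sfrp2, 16.1% overlap a gene on the opposite strand, and whether reads were counted by strand was not given in the sources used here. Sfrp5 was at 33.5, 49.3 and 73.2 CPM with vehicle and 64.1, 69.4 and 122 CPM with E4, a log2 fold change of 0.57 (edgeR adjusted p = 0.0802). Sfrp1 was at 115 to 184 CPM over all libraries, and its estimates as compared with vehicle ran from -0.062 to 0.044. Dkk3 was at 151 to 418 CPM with vehicle and 370 to 516 CPM with E4, with a log2 fold change of 0.46 (edgeR adjusted p = 0.0812), and its lowest value was in mouse C5.

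Axin2, an intracellular brake that is itself a widely used readout of β-catenin signaling, was at 11.9, 14.2 and 18.2 CPM with vehicle, 12.2, 15.4 and 17.3 with E4, 12.6, 15.6 and 17.8 with E2, and 11.1, 14.0 and 15.6 with tamoxifen. The 4 groups overlapped. Its log2 fold changes as compared with vehicle ran from -0.057 to 0.11, and the confidence limits of the 3 estimates lay within -0.29 and 0.35. Notum, a secreted enzyme that removes the lipid from Wnt ligands and another feedback target, was at 0.0730 to 0.734 CPM with estimates from -0.12 to 0.49 and limits of -0.95 to 1.29. Of the exon bases of Notum, 38.1% overlap genes on the opposite strand.

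In the direct comparison of E4 with E2, 7 of the 45 members were called (15.6%), against 12.6% of all genes: Wnt2b was higher with E4, and Fzd10, Rspo2, Sfrp4, Wnt10b, Wnt4 and Wnt5a were lower. Groups did not overlap for 3 of the 45 members (Fzd10, Sfrp4 and Wnt10b), a share near the 6.16% of all genes. Wif1 was not called between the 2 estrogens, at 6.00 to 10.4 CPM with E4 and 3.62 to 8.86 CPM with E2. In the comparison of tamoxifen with E2, 7 of the 45 were called (15.6%), against 6.4% of all genes: Wif1 and Wnt2b were higher with tamoxifen, and Fzd10, Rspo2, Sfrp4, Wnt10b and Wnt9b were lower. Groups did not overlap for 6 of the 45 members, the called ones without Wnt9b, against 4.23% of all genes. The log2 fold change of Wnt9b was -2.05 (edgeR adjusted p = 0.0336), and its call was lost in 7 of 12 single-library fits. In the comparison of tamoxifen with E4, Wif1 was the only member called of 45 (2.22%), against 0.343% of all genes, and its groups did not overlap (0.922% of all genes). The 3 direct comparisons share libraries with each other and with those against vehicle.

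Genes that mark macrophages moved with E2 in the same comparisons. All 7 of the list (Adgre1, Cd68, Csf1r, Mrc1, Lyz2, C1qa and Cd163) were called higher with E2 than with vehicle and lower with E4 and with tamoxifen than with E2, and none was at 0 in any group. Their summed level was 865 to 1330 CPM with E2, 523 to 944 CPM with vehicle, 376 to 685 CPM with E4 and 462 to 679 CPM with tamoxifen. The sum in E2 mice lay above all E4 and tamoxifen mice and overlapped the vehicle group through mouse C5. With the list mean as a covariate, an alternative chosen after seeing the data, Rspo2 and Wif1 kept their calls as compared with vehicle, at log2 fold changes of 1.26 (edgeR adjusted p = 0.0456) and -3.03 (edgeR adjusted p = 4.85e-05). In the same fit Fzd10 was at 1.49 (edgeR adjusted p = 0.052), Wnt9b at 2.35 (edgeR adjusted p = 0.0904) and Sfrp4 at 0.019 (edgeR adjusted p = 0.957), so these 3 lost theirs. Between E4 and E2, Rspo2 was then at -0.097 (edgeR adjusted p = 0.926), Fzd10 at -0.50 (edgeR adjusted p = 0.622) and Sfrp4 at 0.089 (edgeR adjusted p = 0.859), so these calls were lost too. Between tamoxifen and E2, Wif1 (3.14, edgeR adjusted p = 2e-04) and Wnt2b (0.64, edgeR adjusted p = 0.0248) kept their calls, and the other 5 lost theirs: Fzd10 was at -1.02 (edgeR adjusted p = 0.219), Rspo2 at -0.46 (edgeR adjusted p = 0.503), Wnt9b at -0.70 (edgeR adjusted p = 0.7), Sfrp4 at -0.16 (edgeR adjusted p = 0.669) and Wnt10b at 0.084 (edgeR adjusted p = 0.881). Since the list mean barely overlaps between E2 and the other groups, E2 and the level of macrophage genes cannot be told apart here.

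**Figure D4:**
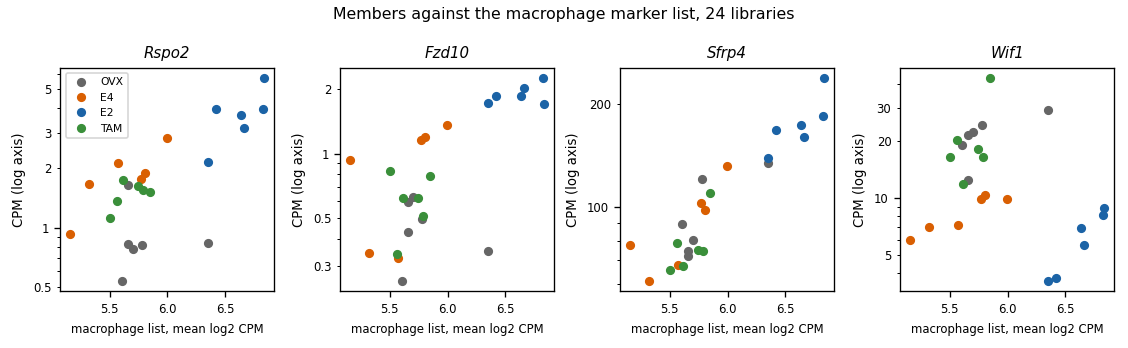
CPM of 4 members (log axis) against the mean log2 CPM of the 7 macrophage genes in each of the 24 libraries, colored by group. The E2 libraries lie from 6.35 to 6.84 on the horizontal axis, apart from all others except vehicle mouse C5 at 6.35.

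Genes of other cell types moved with E4. Of 7 B cell genes, 6 were called lower with E4 than with vehicle, with summed levels of 3.16 to 7.39 CPM and 5.40 to 35.2 CPM. Of 7 fibroblast genes, 4 were called lower, with sums of 2760 to 4491 CPM and 3993 to 6217 CPM. All 4 brown fat genes were called lower, with sums of 450 to 713 CPM and 697 to 1948 CPM. Of 8 adipocyte genes, 3 were called lower and 1 higher, with sums of 4456 to 6669 CPM and 3651 to 8201 CPM. None of these genes was at 0 in a whole group. Both epithelial genes that could be tested, of 6, were called higher with E4, with list sums of 9.22 to 32.2 CPM, the highest in mouse C38, and 4.34 to 8.55 CPM, and 3 of the 6 were at 0 in all E4 mice. Of 7 Schwann and satellite glia genes, 1 was called higher with E4 than with vehicle and 4 higher with E4 than with E2, with sums of 1551 to 3755 CPM with E4, 925 to 1948 with vehicle and 475 to 1585 with E2. With the B cell list mean as a covariate 0 of the 9 member calls with E4 were kept, and of all genes 122 were called in place of 5511. Of the members, Rspo2 was then at 0.96 (edgeR adjusted p = 0.223), Wnt9b at 2.6 (edgeR adjusted p = 0.222) and Wif1 at -0.92 (edgeR adjusted p = 0.247). With the adipocyte list mean as a covariate 5 members were called, against 16.4% of all genes in that fit. With tamoxifen as compared with vehicle, 2 of the 7 B cell genes were called lower (median log2 fold change -1.51). Of the 4 brown fat genes 0 were called, at a median of -0.718. Of 7 smooth muscle genes, 2 were called higher with tamoxifen than with E2 (median 0.447). The part of the fibroblast, brown fat, epithelial, glial and smooth muscle genes was not tested.

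Members were also compared in vehicle C5 and tamoxifen C35, the 2 mice low in sympathetic ganglion genes (10 genes, among them Th and Dbh, enzymes of noradrenaline synthesis). In both, 7 of the 45 tested members lay below every other library of their group (15.6%, against 24.5% of all genes tested): Dkk1, Dkk3, Fzd3, Lgr4, Lgr5, Notum and Wnt3. The lowest relative to its group in both mice, among members with reads there, was Dkk1, an inhibitor of Lrp5 and Lrp6, which had 0.0440 CPM in C5 against 5.82 to 9.61 CPM in the other vehicle mice, and 0.836 CPM in C35 against 8.34 to 14.2 CPM in the other tamoxifen mice. Lgr5, a stem cell marker and R-spondin receptor, had 2.02 CPM in C5 against 8.82 to 12.3, and 4.22 in C35 against 9.88 to 13.02. Dkk3 kept 38.2% of the median of the other vehicle mice in C5 and 75.2% in C35. In the opposite direction 13 of the 45 lay above every other library of their group in both (28.9%, against 14.2% of all genes): Fzd4, Fzd6, Lrp5, Lrp6, Rspo4, Sfrp2, Sfrp4, Wif1, Wnt10b, Wnt11, Wnt16, Wnt2 and Wnt5b. None of the 10 ganglion genes was called in any comparison, and none was at 0 in a whole group. All 10 had higher estimates with E4 than with vehicle (median log2 fold change 0.783) and than with E2 (0.66). As compared with vehicle the median was 0.144 with E2 and 0.391 with tamoxifen, with all 10 positive in each. Their summed level was 42.0 to 7308 CPM with vehicle, 5539 to 9619 with E4, 2672 to 6950 with E2 and 248 to 9178 with tamoxifen. With the ganglion list mean as a covariate, Dkk2, Fzd4, Fzd6 and Wnt10b lost their calls with E4 against vehicle. Rspo2, Fzd10, Wnt9b, Lrp5 and Wif1 kept theirs. Without C5 and C35 together, 8 of 45 members were called with E2 (6.6% of all genes in that fit), 7 with E4 (22.3% of all genes) and 13 between E4 and E2 (25.6% of all genes, where 12.6% were called with all libraries). Of the members called with both estrogens, Rspo2 had 102.5% of the median of the other mice of its group in C5 and 97.7% in C35. Fzd10 had 70.6% and 127.4%, Wif1 had 135.4% and 262.1%, and Wnt9b, with few reads, had 437% and 545%.

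**Figure D5:**
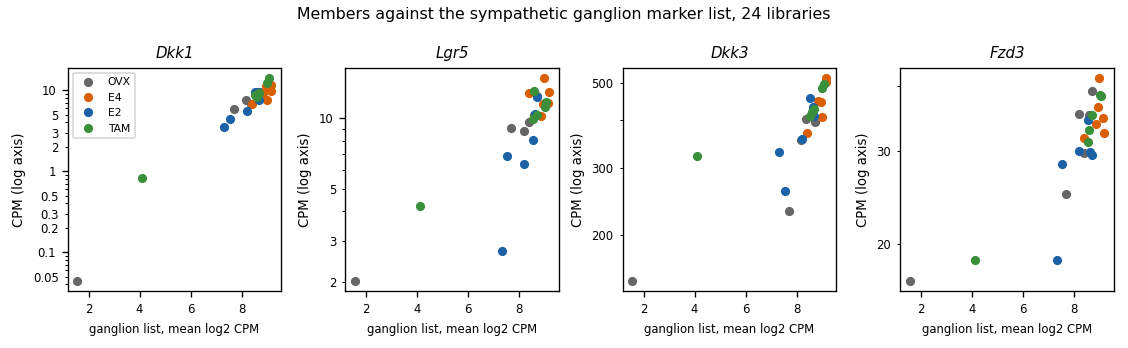
CPM of 4 members (log axis) against the mean log2 CPM of the 10 sympathetic ganglion genes in each of the 24 libraries, colored by group. Dkk1, Lgr5, Dkk3 and Fzd3 are lowest in vehicle mouse C5 (list mean 1.56), and tamoxifen mouse C35 (4.10) lies below the rest of its group for all 4.

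Other genes of the pathway were read from a list of 79 intracellular, secretion, polarity and target genes that are not members, of which 77 were tested. With E4, 20 were called (26%, against the 22% of all genes), 13 higher and 7 lower. The largest changes among the called genes were in Myc, a growth regulator and β-catenin target (log2 fold change 0.81), Bambi, a decoy receptor of the TGF-β family (-0.76), the glypican Gpc6 (-0.62), the Wnt-cleaving protease Trabd2b (0.56) and the corepressor Tle1 (0.53). With E2, 6 were called (7.79%, against 4.14%), 4 higher and 2 lower: Trabd2b (1.23), Dact1, an inhibitor of Dishevelled (-0.80), Myc (0.72), Nfatc2 (0.40), Pygo1 (-0.29) and Rhoa (0.27). With tamoxifen, 2 were called (2.6%, against 2.23%), Ror2, a receptor of Wnt5a (0.82), and Axin1 (0.42), both higher. Between E4 and E2, 9 were called (11.7%, against 12.6%), 6 higher and 3 lower, led by the T cell factor Tcf7 (-2.59), which had 109 CPM in E2 mouse C9 and 2.19 to 8.25 CPM in the other 5, Daam2 (0.73), Trabd2b (-0.66), Celsr2 (0.58) and Bambi (-0.38). T cell genes were highest in the same mouse, 6 of 7 were called lower with E4 than with E2, and their part in the Tcf7 value was not tested. Between tamoxifen and E2, 9 were called (11.7%, against 6.4%), 8 higher and 1 lower, led by Ror1 (0.91), Sost (0.85), Nkd1 (0.72), Ror2 (0.70) and Trabd2b (-0.68). Between tamoxifen and E4, 2 were called (2.6%, against 0.343%), Ror1 (0.79) and Bambi (0.57). The median log2 fold change of the 77 genes was 0.11 with E4, 0.0065 with E2 and 0.17 with tamoxifen. Lef1 and Ctnnb1, which encode a TCF/LEF factor and β-catenin, were called in none of the 6 comparisons.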

How the data were processed

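Total RNA of whole carotid arteries from 24 mice was made into TruSeq Stranded mRNA libraries and sequenced in paired-end mode with 150-base reads. Per the labels, the submitters' processing notes name bcl2fastq 2.17, Trim Galore, Bowtie2 and featureCounts with the mm10/GRCm38 build. The strand setting of the counting was not given in the sources used here. The authors deposited estimated counts per Ensembl gene, 1 table per library, of which 8.868 to 9.805% of the values carry decimals, and these were rounded to whole numbers. No columns of per-sample values were left unused. Total counts were 38464989 to 64223858 with vehicle, 24649523 to 44227286 with E4, 42112802 to 48025473 with E2 and 42970242 to 57688474 with tamoxifen, so that members with few reads have wide intervals. No 2 libraries held identical values.

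Libraries were grouped by their titles. The labels number the mice, so each library was taken as a separate animal. Genes were filtered with filterByExpr by group, scaled by TMM and tested with edgeR 4.0.16 (glmQLFit and glmQLFTest) in R 4.3.3, with all 24 libraries in a single fit and no covariate. Benjamini-Hochberg adjustment ran over 25056 genes, with a threshold of 0.05, and the study's rule of a 2-fold change was applied beside it. CPM are counts scaled to TMM-adjusted library sizes, and RPKM are those values per kilobase of merged exons (GENCODE M21). Marker means are of log2(CPM + 0.5). Promoter windows were read from RefSeq (GRCm38.p6). Alternatives were 13 other settings and fits without each library in turn, with 2 more (the macrophage covariate, and 4 libraries left out together) chosen after the data were seen. DESeq2 1.42.0 was an alternative. Scripts were tested on simulated data. Figures were drawn with Python 3.11.15 and matplotlib 3.10.9.

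The members, the lists and the tests were chosen with earlier results of these data known. Members given in full are those with an adjusted p under 0.05 in any of 6 comparisons, the 10 with the highest median RPKM, and Axin2, Notum, Znrf3, Rnf43, Lrp5 and Lrp6. The genes of the library comparisons are lists of 13 cell types and 79 other pathway genes, of which the called genes with the largest changes, 5 or more per comparison where that many were called, are named.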

Additional observations from a re-analysis of the deposited data

Results flagged for a closer look

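A mouse far from the other 5 of its group was found by dividing its distance to the nearest of them by the whole spread of the 6 values. This ratio, given below, passed Dixon's 95% critical value in 26 of 156 sets of values. Independent, normally distributed values would give about 1 in 20, or 7.8. The sets share the same 24 libraries and many are CPM on a linear scale, so 7.8 is only a rough guide. The values are given without explanation.

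Vehicle mouse C5 was high for Dkk2 (ratio 0.827, 26.9 CPM against 7.60 to 10.9 in the others), Fzd4 (0.75, 346 CPM against 194 to 232) and Wnt10b (0.725, 24.4 CPM against 7.77 to 12.4). In the same mouse the list means of endothelial genes (0.672) and macrophage genes (0.767) were high and that of sympathetic ganglion genes (0.857) was low. Vehicle mouse C25 was high for Rspo2 (0.728, 1.64 CPM against 0.536 to 0.835), and vehicle mouse C2 for skeletal muscle genes (0.821).

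Tamoxifen mouse C35 was high for Wif1 (0.734, 43.4 CPM against 11.9 to 20.3), Lgr6 (0.637, 259 CPM against 70.9 to 139) and Sfrp4 (0.701, 110 CPM against 65.5 to 78.8). It was also high for smooth muscle genes (0.646) and skeletal muscle genes (0.656) and low for ganglion genes (0.894). Tamoxifen mouse C32 was low for Sfrp5 (0.663, 51.1 CPM against 73.8 to 85.4) and for epithelial genes (0.71).

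With E2, mouse C9 was high for Wnt4 (0.893, 3.79 CPM against 0.296 to 0.671), T cell genes (0.646) and epithelial genes (0.918). Mouse C29 was high for Lrp5 (0.629, 42.5 CPM against 27.7 to 33.2) and mouse C27 for Notum (0.629, 0.734 CPM against 0.271 to 0.443). With E4, mouse C38 was high for Rnf43 (0.765, 1.66 CPM against 0.305 to 0.624) and epithelial genes (0.855) and had the lowest total count (0.657). Mouse C39 was high for Sfrp5 (0.733, 122 CPM against 64.1 to 79.6) and mouse C20 for skeletal muscle genes (0.866).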

How the results depend on the processing

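No paired analysis was possible because the groups share no replicate numbers. The number of members called moved by over 1.5 times under the settings below, each given with the share of all genes called in the same fit, which moved as well. The causes were not tested. With E4 against vehicle (9 called, 22% of all genes), 3 passed the 2-fold rule (2.51%), 4 were called in the first number series alone (12.1%) and 0 in the second (0.0196%), 0 with the B cell list as a covariate (0.487%), 5 with the adipocyte list (16.4%) and 5 with the macrophage list (17.1%). Without a single library, 4 to 13 were called (4 without vehicle C5, 5 without vehicle C3 or E4 C20, 13 without vehicle C2). With E2 against vehicle (5, 4.14%), DESeq2 called 10 (5.57%), the fit without C5 and C35 8 (6.6%), the first number series 3 (1.34%), the second 0 (0.361%), and the ganglion, adipocyte and macrophage covariates 11 (8.5%), 9 (6.01%) and 8 (11.3%), with 5 to 6 without a single library. With tamoxifen against vehicle (0, 2.23%), DESeq2 called 5 (7.06%), the ganglion and macrophage covariates 2 each (5.83% and 2.97%), the fit without 4 libraries 1 (1.02%), and fits without a single library 0 to 1 (1 without vehicle C4 or C25). For E4 against E2 (7, 12.6%), 4 passed the 2-fold rule (2.49%), 13 were called without C5 and C35 (25.6%), 0 in the second series, where 0 of all genes were called, and 3 (3.24%), 2 (3.22%) and 0 (0 of all genes) with the B cell, adipocyte and macrophage covariates, with 6 to 11 without a single library (11 without E2 C29). For tamoxifen against E2 (7, 6.4%), the first series gave 3 (4.51%), the second 2 (0.451%) and the macrophage covariate 4 (2.83%), with 6 to 8 without a single library. For tamoxifen against E4 (1, 0.343%), the fit of these 2 groups alone, each number series and the B cell covariate gave 0 (0.00393 to 0.303%), with 0 to 1 without a single library. With the macrophage covariate 4 estimates changed sign, all uncalled: Sfrp4 (0.089), Wnt10b (0.089) and Wnt5a (0.19) between E4 and E2, and Wnt10b (0.084) between tamoxifen and E2. Of the values of single called members, 294 kept direction and call under other settings and 102 kept direction only, and 309 and 39 did so without a single library. The number series hold as few as 2 vehicle mice, which limits the calls there.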

Other observations

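Of the 7 members under the filter on low counts, Wnt7b had 151 read pairs over 22 libraries, with the highest level in E4 mouse C38 (0.729 CPM). Wnt8b had 134 read pairs over 16 libraries, of which 62 were in E2 mouse C9 (1.35 CPM). Wnt1 had 161 read pairs over 21 libraries, Wnt8a had 32 over 13 and Dkk4 had 7 over 3.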
